A study of Mus musculus with 8 samples.

Results

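The genes for the proteins of the cytosolic ribosome were examined in bone marrow mesenchymal stem cells (MSCs) with and without the m6A methyltransferase gene Mettl3. Members were taken by name from the deposited expression table, as protein-coding entries called Rpl or Rps with a number and at most 1 of the letters a, x, y or l, together with Rplp0, Rplp1, Rplp2 and Rpsa. This gave 81 genes of 47732 entries, 50 for the large (60S) and 31 for the small (40S) subunit. Of these, 76 encode standard ribosomal proteins and 5 encode paralogs whose symbol ends in l (Rpl3l, Rpl6l, Rpl10l, Rpl39l and Rps27l). The RNA-seq libraries came from Mettl3fl/fl mice, which the labels call wild type (WT), and from Prx1-Cre;Mettl3fl/fl mice (cKO), with 2 libraries of each. The labels give C57BL/6 for every sample, and both groups carried the floxed allele, so that they differed by the Prx1-Cre transgene, which is active in limb bud mesenchyme and its descendants. MSCs were flushed from tibiae and femurs and kept for 2 days in osteogenic medium with ascorbic acid, β-glycerophosphate and dexamethasone. The age of the mice and whether cells of several mice were pooled are not given in the labels, so that p-values measure only the spread between these samples. A separate m6A immunoprecipitation (MeRIP-Seq) of wild type MSCs, with 2 immunoprecipitates and 2 inputs, was deposited as 1 peak list.

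Each ribosome holds 1 copy of most of these proteins, and cells make them in matched amounts. Their mRNAs are short and abundant, and most start with a cytosine followed by a run of pyrimidines, the 5′ terminal oligopyrimidine (TOP) motif, through which mTORC1 and the RNA-binding protein Larp1 control their translation. The genes are spread over nearly all chromosomes, many of them carry small nucleolar RNAs in their introns, and the mammalian genome holds many processed pseudogenes copied from their mRNAs. Mettl3 is the catalytic subunit of the complex that writes m6A, mostly at sites with the sequence GGAC or close variants of it.

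The start sites of the members are shown first, since the TOP motif is known from these mRNAs. RefSeq start regions (GRCm38.p6, 250 bases before the start to 50 after) matched 60 of the 81 members with 72 starts. A C followed by at least 4 pyrimidines lay exactly at the annotated start in 13 of 72 starts (18.1%), against 2.51% of all 32851 starts and 2.33% of the starts of tested protein-coding genes. Within 30 bases on either side of the start, a run of 8 pyrimidines on the sense strand was found at 36 member starts (50.0%) and at 22.9% of all starts. The sequence CCGGAA, a core of ETS family sites, was present on either strand of the whole region at 34 member starts (47.2%), against 14.9% of all starts and 25.5% of starts of tested protein-coding genes. Such matches describe letters in a window and not bound factors. The match to the motif depends on the exact annotated base. Rpl27a is not counted, since the run of 16 pyrimidines at its annotated start begins with T. Whether annotated starts are the true first bases was not tested, so a start without the match does not show that the mRNA lacks the motif. The 8 starts printed below were picked from the 13 with the motif, and Rps21 also has a start without it. Rpl41, Rpl12, Rpl39l, Rpl27, Rps2 and Rplp0, which fell in cKO, have no annotated start with the motif. Counts of all tested members by motif are given further below. For 8 members described in the results, the 10 bases before and 20 bases from the start read as follows, with the pyrimidine run from the first transcribed base in capitals:
Rps27, chr3:90213629-90213658, minus strand: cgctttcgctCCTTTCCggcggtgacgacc
Rps6, chr4:86857348-86857377, minus strand: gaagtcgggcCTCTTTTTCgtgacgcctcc
Rps18, chr17:33955646-33955675, minus strand: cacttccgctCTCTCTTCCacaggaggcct
Rpl38, chr11:114668570-114668599, plus strand: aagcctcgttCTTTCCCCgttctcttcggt
Rpl15, chr14:18270967-18270996, minus strand: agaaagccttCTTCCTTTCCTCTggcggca
Rpl14, chr9:120571507-120571536, plus strand: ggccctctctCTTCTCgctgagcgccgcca
Rplp2, chr7:141447641-141447670, plus strand: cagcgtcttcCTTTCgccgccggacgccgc
Rps21, chr2:180257369-180257398, plus strand: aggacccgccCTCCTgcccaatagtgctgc
Rpsa, one of the members that fell most, has an annotated start that does not begin with this motif (chr9:120127756-120127785, plus strand: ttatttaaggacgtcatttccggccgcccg).

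The 4 RNA-seq libraries held 23948200 to 34069223 counts on named genes. Mettl3 itself was at 17.6 and 16.9 CPM (counts scaled to the library total) in WT and at 17.5 and 16.3 in cKO, a log2 fold change of -0.03 ± 0.09 (SE, n = 2 per group; adjusted p = 0.824 in edgeR's quasi-likelihood F test, adjusted by Benjamini-Hochberg). The counts cover the whole gene, while the Cre removes an internal part of it, so this value does not check the labels. The WT libraries differed from each other much more than the cKO libraries, with a biological coefficient of variation of 12.3% against 1.90%, and over the genes compared the mean chi-square per gene was 30.2 in the WT pair and 1.82 in the cKO pair. The labels do not say whether the 2 cKO libraries came from separate mice or cultures, so that the small spread of this pair, and each SE and p-value that uses it, may be technical. Of the markers, Col1a1 (1225 to 1921 CPM) and Col1a2 (811 to 1862 CPM) were abundant, as in stromal cells, but macrophage genes were too. The 12 macrophage genes, led by Lyz2 (10984, 15934, 15633 and 15714 CPM in WT 1, WT 2, cKO 1 and cKO 2), summed to 20611 and 24640 CPM in WT and to 27421 and 27490 in cKO, and 4 of 13 entries tested rose in cKO, among them C1qa and Ptprc. The 12 MSC genes summed to 4780 and 4561 CPM in WT and 3192 and 3223 in cKO, with 6 lower and 4 higher. Most of this sum was Col1a1 (1896 and 1921 CPM in WT, 1225 and 1259 in cKO) and Col1a2 (1862 and 1759, 811 and 829). The 4 higher genes were Prrx1, Pdgfra, Pdgfrb and Thy1, so the sum does not stand for the MSC genes as a set. Neutrophil genes summed to at most 4.22 CPM, with Mpo, Ngp, Retnlg and S100a9 at 0 in every library and 1 of 2 genes tested lower. Erythroid genes summed to at most 0.626 CPM with Hbb-bt at 0, and none of them was tested. Endothelial genes summed to 3.67 and 3.42 CPM in WT and 17.3 and 14.6 in cKO (2 of 3 tested higher), and adipocyte genes to 121 and 136 in WT and 215 and 219 in cKO (4 of 6 higher, 1 lower). In such bulk samples, fewer cells of a type and less RNA per cell cannot be told apart, and the part of the cell makeup in the results below was not tested.

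Ribosomal protein mRNAs were among the most abundant of these cells. By deposited TPM, a level scaled to transcript length and library total, the 78 members that passed the filter on low counts ranged from 24.4 for Rpl12 to 9735 for Rps27, with a median of 1310 TPM averaged over the 4 libraries. The order was led by Rps27, a zinc finger protein of the small subunit, at 10635 and 8850 TPM in WT and 9927 and 9529 in cKO. It was followed by Rplp1, an acidic protein of the stalk that recruits elongation factors, at 6383, 5680, 5106 and 4848 TPM, and by Rpl41, the smallest protein of the ribosome, at 5611, 5826, 4457 and 4487 TPM in the same order of libraries. Next came Rps28 with 4208, 5023, 4003 and 4218 TPM, Rps14 with 4311, 3892, 4366 and 4330 TPM, and Rps21 with 4303, 4510, 3824 and 3930 TPM. The last 3 cannot be ordered among themselves, since their libraries overlapped. By TPM, Rps27 stood above every other member in every library. By counts not scaled to length it did not lead, with a mean of 587 CPM against 1324 CPM for Rpl13a. The median level was 1862 TPM for the 31 small subunit genes and 1254 TPM for the 47 large subunit genes tested.

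**Figure D1:**
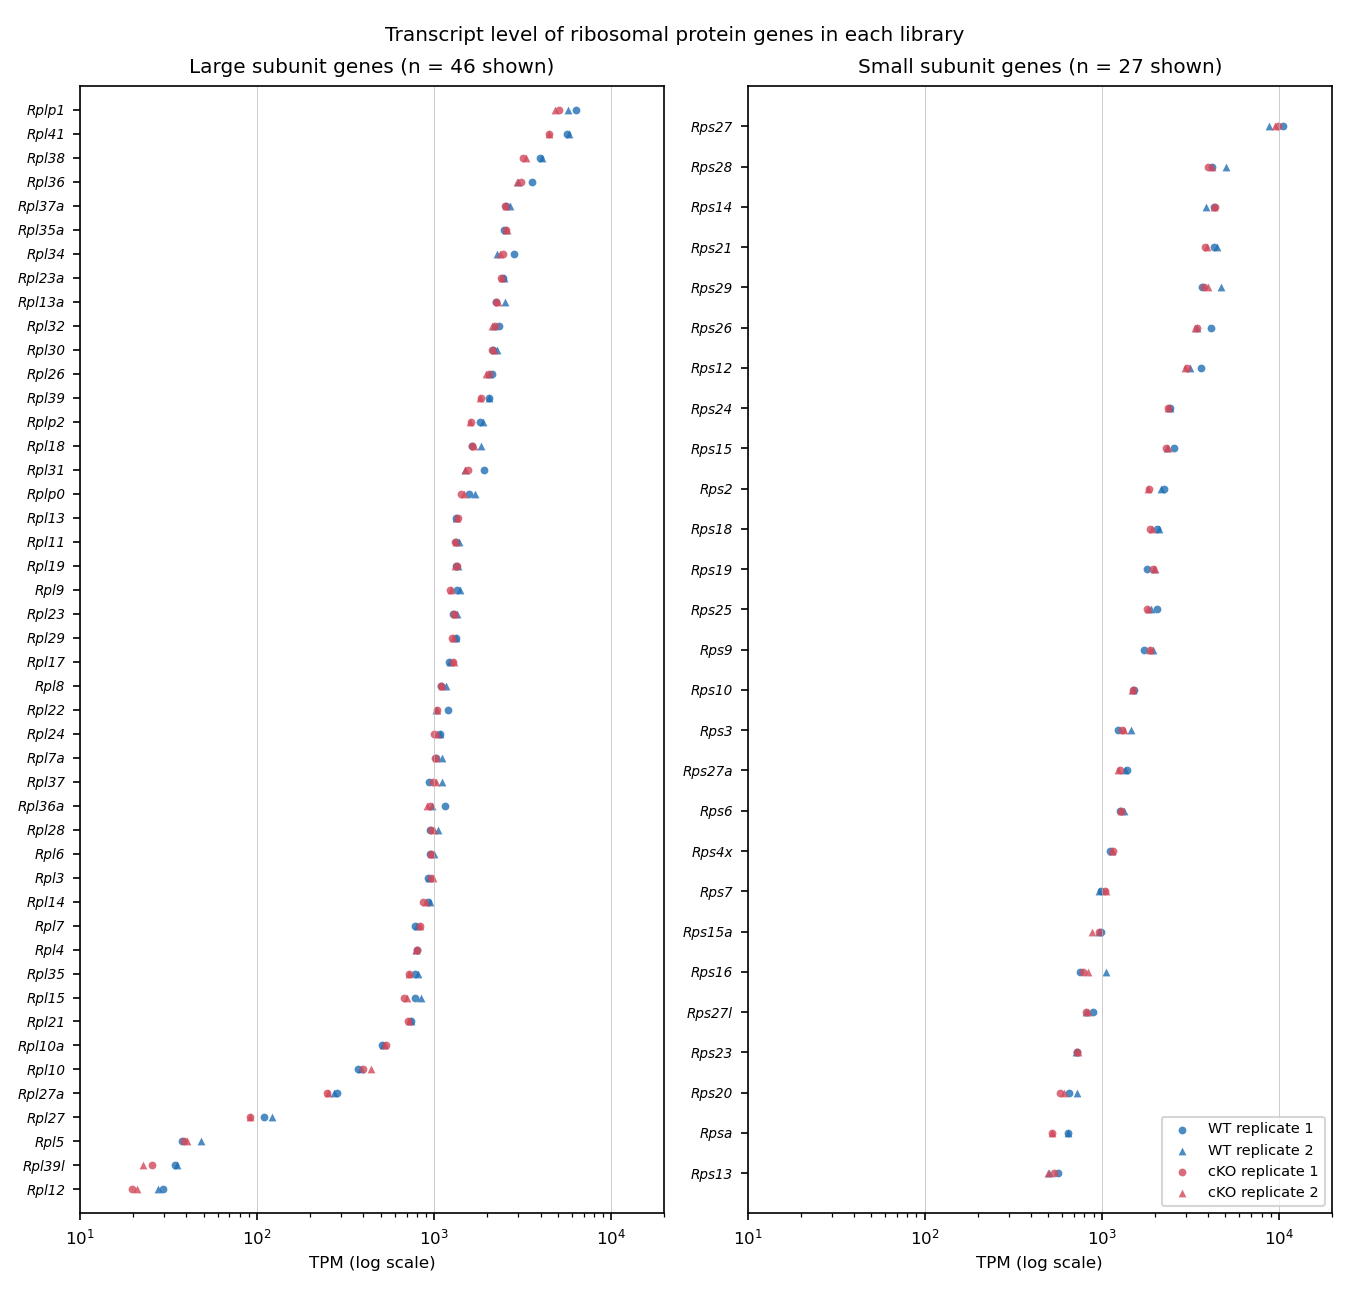
Level of 73 of the 78 tested members in the 4 libraries, in TPM on a log scale, for large subunit genes (left) and small subunit genes (right), ordered by mean. Circles are replicate 1, triangles replicate 2, blue WT and red cKO. Rps27 is highest at 8850 to 10635 TPM, and Rpl12, Rpl39l and Rpl5 are lowest.

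The paralogs were low except for Rps27l. Rps27l, a close relative of Rps27 that is known as a p53 target, was at 891 and 816 TPM in WT and 815 and 837 in cKO, within the range of standard members. Rpl39l, known as a testis-enriched copy of the exit tunnel protein Rpl39, was at 34.4, 35.6, 25.6 and 22.7 TPM, while Rpl39 was at 2043, 2042, 1845 and 1809 TPM. Rpl3l, known from skeletal and cardiac muscle, had 2, 4, 0 and 3 counts in WT 1, WT 2, cKO 1 and cKO 2. Rpl10l, known from testis, had 5 counts in WT 2 and 0 in the other libraries, and Rpl6l had 0, 2, 1 and 0 counts. These 3 genes were removed by the filter on low counts and were not tested.

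Reads of several members were divided between the gene and pseudogene copies. Of 87 pseudogene entries of any name with at least 200 counts in any library, 68 could be placed on mm9, and the others were not searched. Of these 68, 21 matched the mRNA of 20 members at 85% identity or more over at least 150 bases. Of the combined counts of a member and its copies, the pseudogenes took 93.9% for Rpl27, 92.4% for Rpl12, 92.1% for Rpl5, 80.6% for Rpl10, 60.1% for Rpl27a, 55.8% for Rpl31 and 49.2% for Rps13, as means of 4 libraries. Rpl5, which binds 5S ribosomal RNA together with Rpl11, was counted at 1263, 1488, 975 and 1278, whereas its pseudogene Gm15500, identical over 1018 aligned bases, held 16762, 14108, 11910 and 15887 counts in the same libraries. Rpl12, at the base of the stalk, held 677, 557, 286 and 431 counts and Gm10275 (99.6% identity over 494 bases) 7561, 5735, 4357 and 5432. The levels of these members are therefore uncertain. For 7 of the 20 members, from Rpl17 to Rplp1, the share on copies was 5.68% or less. All members together took 3.74% and 4.07% of counts in WT, and RP-named pseudogenes another 0.262% to 0.283% of each library. That set leaves out copies with other names, such as Gm15500 and Gm10275. The 21 matched copies, a set that overlaps with the RP-named one, held 0.337% to 0.358% of each library.

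**Figure D2:**
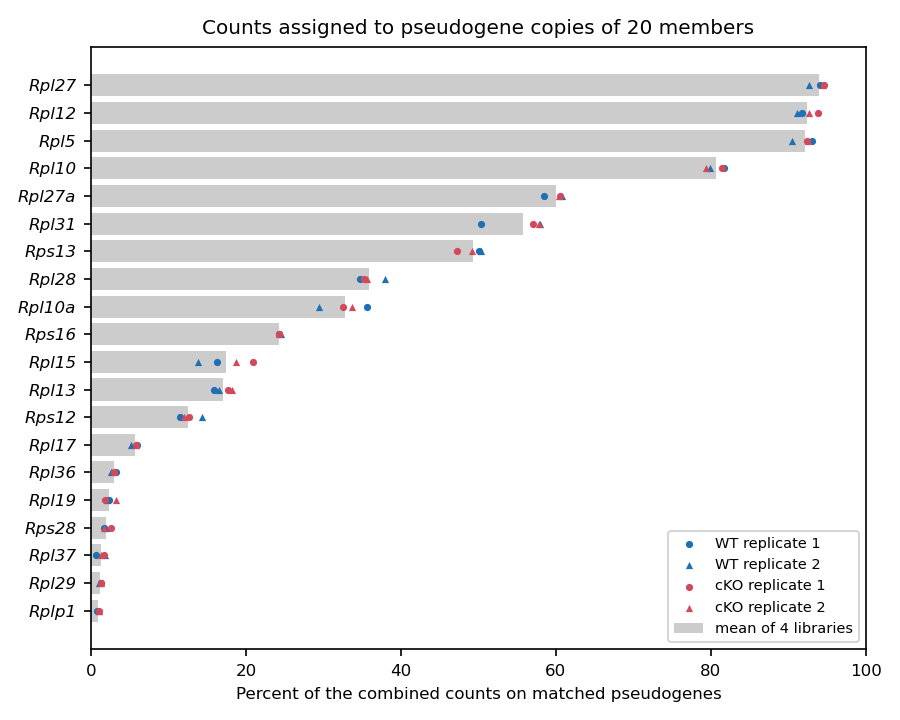
Percent of the combined counts of a member and its matched pseudogenes that the deposited table assigned to the pseudogenes, for 20 members. Bars are the mean of 4 libraries, and points are the libraries (circles replicate 1, triangles replicate 2, blue WT, red cKO). Rpl27, Rpl12 and Rpl5 have over 90% of their counts on copies in every library.

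In cKO, 26 of 78 members tested fell and 0 rose at an adjusted p under 0.05 in edgeR's quasi-likelihood F test, adjusted by Benjamini-Hochberg over all genes tested. Over all 15327 genes tested, 16.8% fell and 13.7% rose, and among the 2225 genes with a mean of at least 100 CPM, 21.1% fell. The members' share was 33.3%. At an unadjusted p under 0.05, 38 members were lower and 0 higher, and DESeq2 and both limma fits also called 0 higher. The median log2 fold change of the members was -0.17, which is a median change of -10.8%, with a range from -0.65 to 0.04, against 0.00 over all genes tested. Of the members, 76 of 78 had a negative log2 fold change (50.6% of all genes did), which was 62 of 78 in both limma fits on TPM and 67 of 78 without WT replicate 2, and in 66 both cKO libraries lay below both WT libraries in CPM scaled by the trimmed mean of M values (TMM), against 35.0% of all genes. Of the large subunit genes 15 of 47 fell and of the small subunit genes 11 of 31, with medians of -0.16 and -0.17. The differences are small, and the number of calls rests on the libraries used. Without cKO replicate 1 or without cKO replicate 2, 1 member was called lower, and without WT replicate 1 or WT replicate 2, 75 and 53 were, with 4 members called higher without WT replicate 2. With limma on log2(TPM + 0.1) 0 members fell, and on log2(TPM + 1) 3 did.

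**Figure D3:**
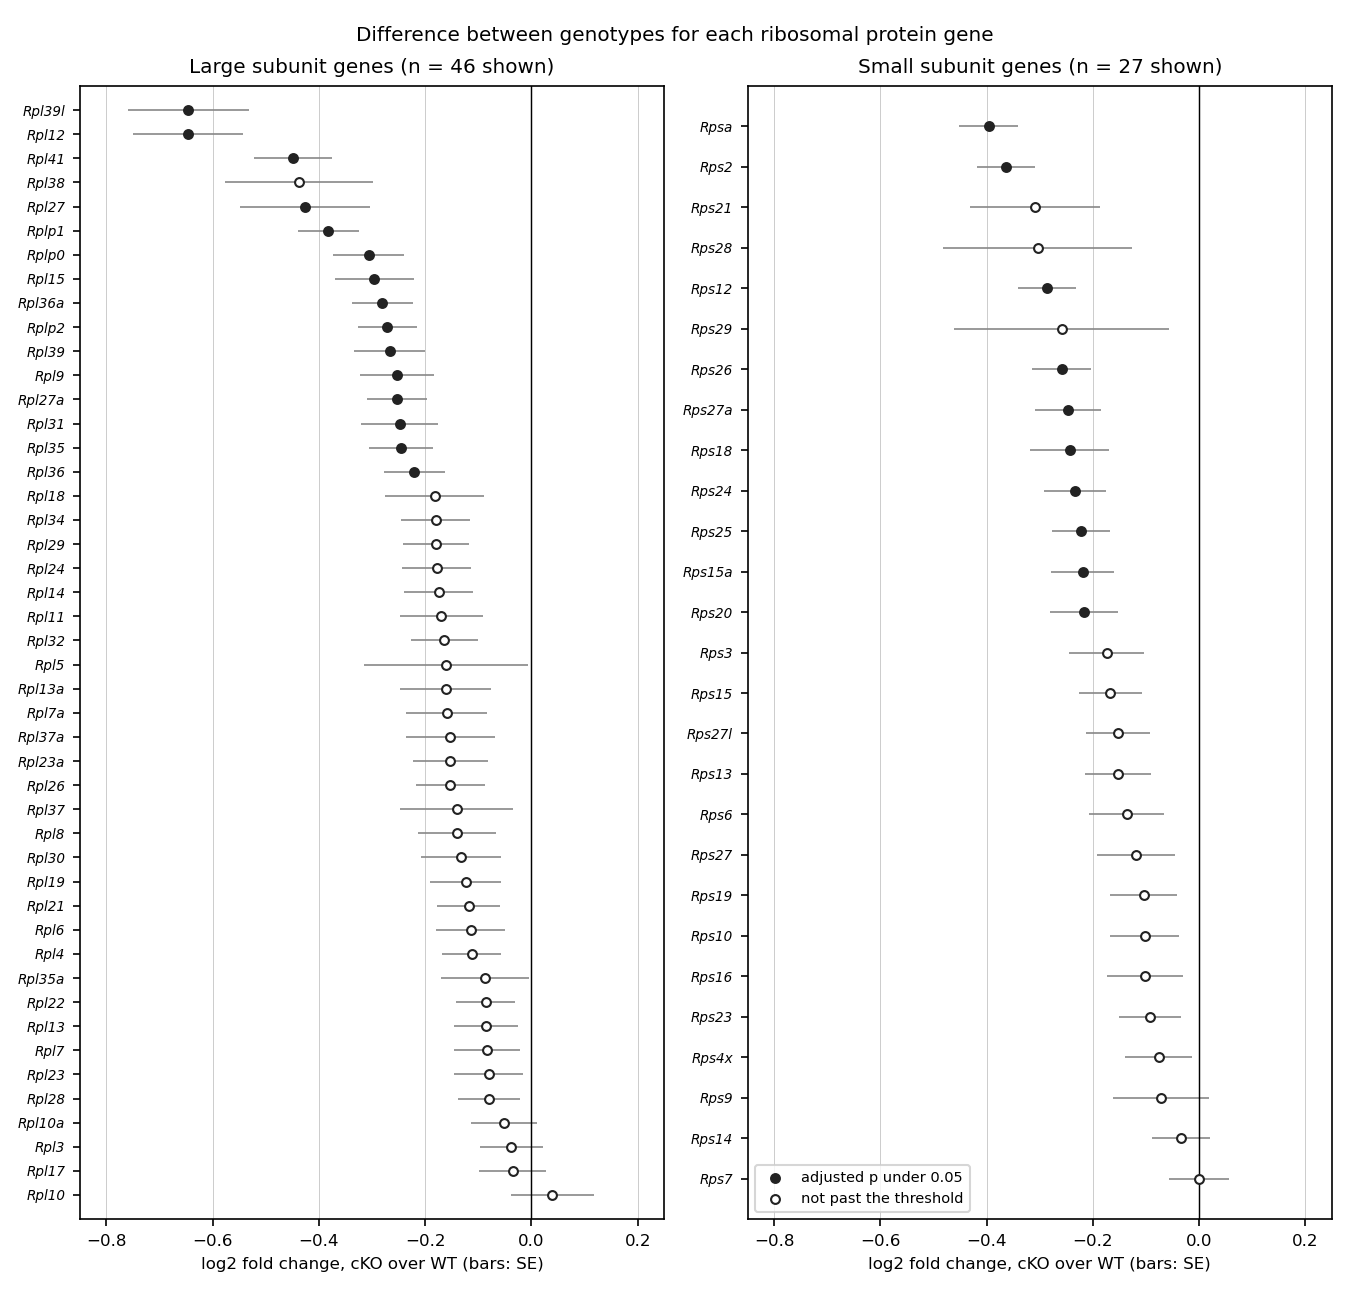
Log2 fold change of cKO over WT for 73 of the 78 tested members with the standard error, for large subunit genes (left) and small subunit genes (right). Filled points passed an adjusted p of 0.05 in edgeR's test on all 4 libraries. Of the 73 points, 72 lie left of 0, and 25 are filled.

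The difference was largest among members with the shortest coding sequences, and other genes with short coding sequences were lower too. Of 26 members with a coding sequence of at most 400 nt, 14 fell (53.8%) with a median log2 fold change of -0.24, of 30 members over 400 and up to 600 nt 6 fell (20%, median -0.15), and of 21 longer members 5 fell (23.8%, median -0.14). Among genes that are no members, 31.5% of 657 with at most 400 nt fell and 5.63% rose (median -0.20), 23.8% of 1015 over 400 and up to 600 nt fell and 8.37% rose (median -0.12), and 17.2% of 11636 longer genes fell and 16.1% rose (median 0.01). Across 77 members placed on the annotation, Spearman's rho with the log2 fold change was 0.35 for coding length, 0.13 for transcript length and 0.24 for mean CPM, and Pearson's r on log2 values was 0.35, 0.03 and 0.48, as a description over genes that share the same 4 libraries. The part of length or level in the members' difference was not tested.

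Taken as a share of the library, the 81 members held 3.74% and 4.07% of counts in WT and 3.51% and 3.52% in cKO, which is 3.91% ± 0.229 against 3.52% ± 0.00760 (SD, n = 2). Both cKO values lay below both WT values. The log2 ratio of cKO over WT was -0.15, with p = 0.33 in the exact permutation test (two-sided), the smallest value that 2 against 2 libraries allow. By TPM the share was 14.3% and 14.1% in WT and 13.4% in both cKO libraries, a log2 ratio of -0.09 with the same p.

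**Figure D4:**
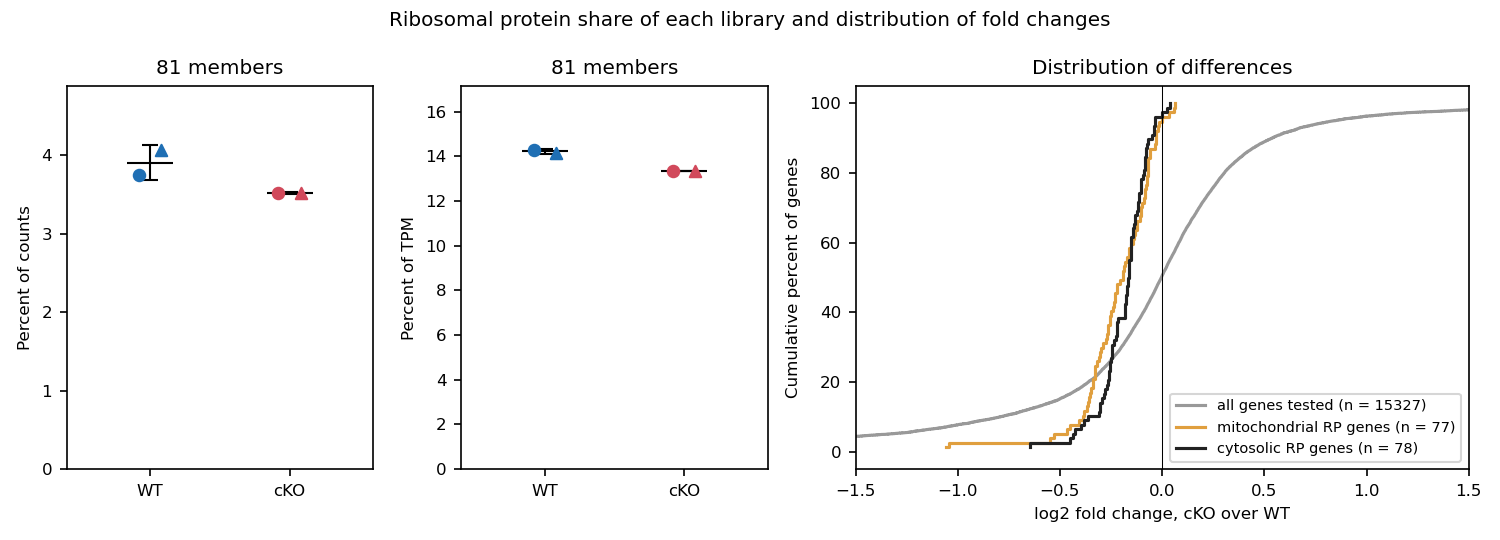
Left and middle, share of the 81 members in the counts and in the TPM of each library (circles replicate 1, triangles replicate 2, bars mean and SD of n = 2). Right, cumulative distribution of the log2 fold change of cKO over WT for cytosolic RP genes, mitochondrial RP genes and all genes tested; the medians are -0.17, -0.19 and 0.00.

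The stalk of the large subunit, which holds Rplp0 and dimers of Rplp1 and Rplp2 and activates the elongation factors, was lower in each of its 3 genes. Rplp1 was at 1054 and 1070 CPM in WT and at 832 and 798 in cKO. Its log2 fold change was -0.38 ± 0.06 (SE, n = 2 per group) with an edgeR adjusted p of 0.00432. Rplp0, the scaffold of the stalk, was at 1287 and 1417 CPM in WT and 1080 and 1106 in cKO, a log2 fold change of -0.31 ± 0.07. Rplp2 was at 491 and 494 CPM in WT and 410 and 407 in cKO, a log2 fold change of -0.27 ± 0.05. In each of the 3 genes both cKO libraries lay below both WT libraries, as in 66 of 78 members and 35.0% of all genes tested. None of the 3 was called lower in the limma fits on TPM.

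Of the other large subunit genes, Rpl41 was at 981 and 1108 CPM in WT and 766 and 764 in cKO, and fell by 0.45 on the log2 scale (SE 0.07, edgeR adjusted p = 0.00604). Rpl38, at 236 and 320 CPM in WT and 197 and 213 in cKO, had a log2 fold change of -0.44 ± 0.14 and did not pass the threshold (edgeR adjusted p = 0.0571). The largest falls were those of Rpl39l and Rpl12, each at -0.65 on the log2 scale. Rpl39l was at 13.7 and 15.04 CPM in WT and 9.66 and 8.72 in cKO (SE 0.11, edgeR adjusted p = 0.00811). Rpl12 was at 20.02 and 19.7 CPM in WT and 11.8 and 13.5 in cKO (SE 0.10, edgeR adjusted p = 0.00570), and with the counts of its pseudogene added, an alternative chosen after seeing the data, its log2 fold change was -0.31 with an edgeR adjusted p of 0.0173. Rpl27, at 33.9 and 43.2 CPM in WT and 28.4 and 28.9 in cKO, had a log2 fold change of -0.43 ± 0.12 (edgeR adjusted p = 0.0419). With its 2 pseudogenes added, this was -0.15 and no longer past the threshold (edgeR adjusted p = 0.0951), and Rpl15 and Rpl31 lost their calls in the same way while Rps13 gained one. For Rpl5, which showed -0.16 ± 0.15 on its own counts, the value with Gm15500 added was -0.02 ± 0.06.

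Of the small subunit, Rpsa, known both as a ribosomal protein and as the laminin receptor precursor, fell most. It was at 785 and 812 CPM in WT and 608 and 606 in cKO, a log2 fold change of -0.40 ± 0.06 (SE, n = 2 per group; edgeR adjusted p = 0.00356). Rps2, at the entry of the mRNA channel, was at 1264 and 1270 CPM in WT and 993 and 976 in cKO, a log2 fold change of -0.36 ± 0.05. Rps27a, which is made as a fusion with ubiquitin, had a log2 fold change of -0.25 ± 0.06 with an edgeR adjusted p of 0.028. Rps28, Rps21 and Rps29 varied widely between the WT libraries. Rps28 was at 341 and 515 CPM in WT and 333 and 360 in cKO, and the groups overlapped. Rps21 was at 380 and 496 CPM in WT and 345 and 362 in cKO, with a log2 fold change of -0.31 ± 0.12 and an edgeR adjusted p of 0.106 that passed the threshold under the replicate block (adjusted p = 0.0352) and in DESeq2 (adjusted p = 0.0437). Rps29, at 315 and 507 CPM in WT and 330 and 357 in cKO, showed the widest gap between WT libraries, 0.69 on the log2 scale. In all, 13 members differed by more than 0.2 on the log2 scale between the WT libraries and 0 between the cKO libraries.

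Members that differed little included Rps14, at 793 and 814 CPM in WT and 787 and 783 in cKO (log2 fold change -0.03 ± 0.06), and Rps7, at 522 and 538 CPM in WT and 527 and 532 in cKO (log2 fold change 0.00 ± 0.06). Rps27, the most abundant by TPM, was at 574 and 648 CPM in WT and 565 and 560 in cKO, a log2 fold change of -0.12 ± 0.07 with an edgeR adjusted p of 0.268. For Rps14 and Rps27 the direction depended on the scale, since both were at or above 0 in the limma fits on TPM. Rpl10, an X-linked gene whose protein joins the 60S subunit last, had the highest log2 fold change of the members in the fit to all 4 libraries, at 0.04 ± 0.08. Rps27l was at 151 and 157 CPM in WT and 136 and 141 in cKO, a log2 fold change of -0.15 ± 0.06 and an edgeR adjusted p of 0.103.

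The calls were also counted by start motif and by intronic snoRNAs, as a description. Of 13 tested members with the motif exactly at a RefSeq start 5 fell (38.5%), and of 45 with another annotated start 16 did (35.6%). By position in the deposited table, 29 of 81 members (35.8%) contain 56 snoRNA entries on the same strand, against 226 of 13650 tested protein-coding genes (1.66%). Rpl4 holds 5 of them, and Rpl13a holds Snord32a, Snord33, Snord34 and Snord35a. Of the 29 host members 9 fell (31.0%), and of the other 49 tested 17 did (34.7%). These shares lay near the 33.3% of all members tested, against 16.8% of all genes tested.

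m6A peaks were rare on ribosomal protein mRNAs. A peak summit lay in an exon of 7 of 77 expressed members placed on mm9 (9.09%), against 5305 of 11879 other protein-coding genes with a mean of at least 1 TPM (44.7%). Among other genes with at least 100 TPM the share was 38.3%, and among those that also had a transcript of at most 1500 nt it was 20.9% (99 of 473), although these were not matched to the members, whose median level was 1310 TPM. Mitochondrial ribosomal protein genes had a peak in 19 of 76. The members' transcripts were short, with a median of 794 nt against 2880 nt in other genes. At least 1 GGAC was held by 96.1% of them, with 3.43 per kb against 4.27 per kb in other genes. In other genes with at least 100 TPM and a transcript of at most 1500 nt it was 4.91 per kb. Whether peak reads of members with near-identical pseudogene copies were placed on the copies was not tested. The peak list has no replicate, so these shares carry no replicate error.

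**Figure D5:**
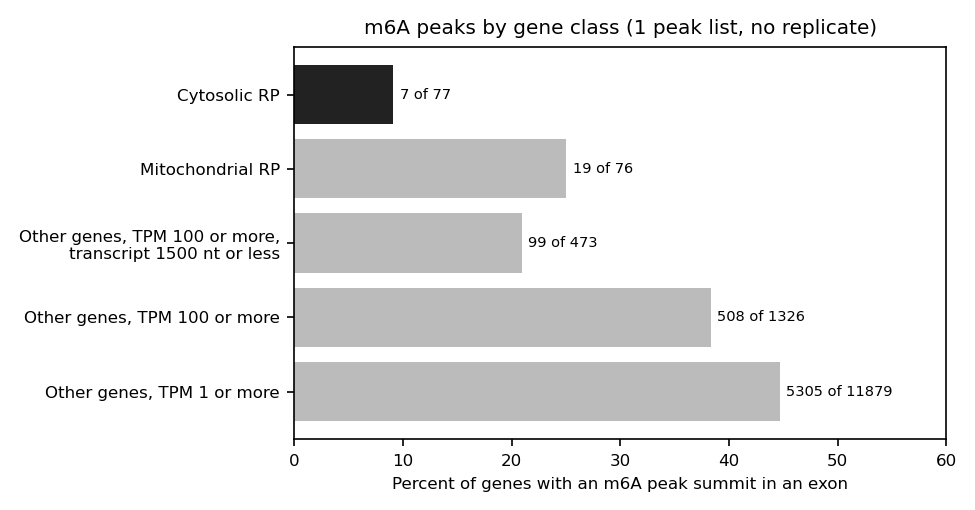
Percent of genes with an m6A peak summit in an exon for cytosolic RP genes, mitochondrial RP genes and other protein-coding genes by level and transcript length, with the number of genes beside each bar. Cytosolic RP genes have the lowest share, 7 of 77, and other genes with at least 100 TPM and a transcript of at most 1500 nt have 99 of 473.

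The 7 members with a peak were Rpl4, Rpl13, Rpl13a, Rpl14, Rps6, Rps15 and Rps18. In 6 of them the summit lay in the coding sequence, and in Rpl4, Rpl13, Rpl13a and Rps6 in the last exon, 122, 154, 82 and 158 nt before the stop codon. In Rpl14 it lay in exon 4 of 6 and in Rps15 in exon 3 of 4. The peak at Rps18 (chr17:34092811-34093018) touched 1 minor transcript at the gene's start and also an exon of Vps52 on the other strand, so that its gene is uncertain. The enrichment was low, with a fold of 1.69 to 4.86 against a median of 4.03 over all 10160 peaks, and below that median in 6 of 7. The pileup was 60 to 200, against a median of 60. GGAC was present on the transcript strand within the genomic span of the peaks in 5 of the 7 genes. That span can include intron, and whether each GGAC lies in an exon was not checked. To show these matches, 21 bases (mm9) around the GGAC nearest to the summit are printed with GGAC in capitals:
Rpl4, chr9:64026101-64026121, plus strand, 15 nt from the summit: agagaaggGGACtgcagacaa
Rpl13a, chr7:52381318-52381338, minus strand, 73 nt from the summit: agaccaacGGACtcctggtgt
Rps6, chr4:86500835-86500855, minus strand, 78 nt from the summit: gaagcccaGGACcaaagcacc
Rpl14, chr9:120482575-120482595, plus strand, 113 nt from the summit: ttacaaagGGACatggtttta
Rps15, chr10:79756266-79756286, plus strand, 143 nt from the summit: gctatggaGGACttgtcttta

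Of the 7 members with a peak 1 fell in cKO (14.3%), and of the 71 without one 25 did (35.2%), against 16.8% of all genes tested. The median log2 fold changes of the 2 groups of members were -0.16 and -0.17, and 7 members are too few to compare the shares. Rpl13a, a large subunit protein also known from interferon-dependent control of translation, was at 1285 and 1511 CPM in WT and 1234 and 1266 in cKO (log2 fold change -0.16 ± 0.09). Rps6, the substrate of the S6 kinases, was at 590 and 659 CPM in WT and 570 and 566 in cKO (-0.14 ± 0.07). Rpl4 was at 711 and 728 CPM in WT and 671 and 660 in cKO (-0.11 ± 0.06). None of Rpl13a, Rps6 and Rpl4 passed the threshold. Both cKO libraries lay below both WT libraries in all 7 members with a peak, as in 66 of 78 members and 35.0% of all genes tested. Rpl14 showed -0.17 ± 0.06, Rps15 -0.17 ± 0.06 and Rpl13 -0.09 ± 0.06, none past the threshold, and Rpl13 was above 0 in the limma fits on TPM. Rps18, at 507 and 571 CPM in WT and 447 and 463 in cKO, showed -0.24 ± 0.07 with an edgeR adjusted p of 0.0497, which was above 0.05 with median-of-ratios size factors (0.0523) and with library totals only (0.0688).

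Ribosomal protein genes outside the name rule were described beside the members. Of 8 tested, 2 fell and 0 rose (unadjusted 3 and 0, DESeq2 2 and 0), against 16.8% and 13.7% of all genes tested. Fau, which encodes the small subunit protein eS30 fused to a ubiquitin-like domain, was at 113 and 125 CPM in WT and 89.1 and 101 in cKO, a log2 fold change of -0.33 ± 0.09 (edgeR adjusted p = 0.0324). Rps3a1 (-0.08 ± 0.06) and Gnb2l1, the gene of the scaffold protein Rack1 (-0.16 ± 0.07), did not pass the threshold.

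Mitochondrial ribosomal protein genes, which encode the ribosome of the organelle and share no subunit with the cytosolic one, were lower in part as well. Of 77 tested, 21 fell and 0 rose (34 and 0 at an unadjusted p under 0.05), with a median log2 fold change of -0.19, while DESeq2 called 9 lower and limma on log2(TPM + 1) 1. Over all genes tested, edgeR called 16.8% lower and 13.7% higher. Mrps14 was at 39.7 and 42.8 CPM in WT and 29.2 and 31.2 in cKO (log2 fold change -0.45 ± 0.08). Mrpl54 had -0.41 ± 0.08 and Mrps21 -0.35 ± 0.07, both past the threshold. Mrps6 was at 57.4 and 136 CPM in WT and 49.1 and 44.0 in cKO and did not pass it. This list was not tested against the members.

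Other mRNAs with a TOP motif, mainly translation factors, moved in both directions. Of 21 genes, 7 fell and 1 rose, against 16.8% and 13.7% of all genes tested, with a median log2 fold change of -0.10. Eef1a1, the most abundant, was at 5016 and 5179 CPM in WT and 5244 and 5289 in cKO (0.05 ± 0.06, not past the threshold). Eef2, the translocase, was at 2210 and 2238 CPM in WT and 2520 and 2551 in cKO and rose by 0.19 on the log2 scale (SE 0.05, edgeR adjusted p = 0.0416), but was not called by DESeq2 or by limma on log2(TPM + 1), which called 0 genes of this list higher. Vim, the intermediate filament vimentin, fell by 0.91 on the log2 scale (SE 0.06), and Eef1g fell by 0.38 (SE 0.06).

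Ribosome biogenesis factors, which process ribosomal RNA and assemble subunits in the nucleolus, were lower in 13 of 35 genes and higher in 0 (20 and 0 at an unadjusted p under 0.05), with a median log2 fold change of -0.22. DESeq2 called 8 lower and 0 higher, and limma on log2(TPM + 1) 1 and 0. Among all genes tested, edgeR called 16.8% lower and 13.7% higher. Nop58, a core protein of box C/D snoRNPs, was at 47.5 and 49.4 CPM in WT and 33.1 and 34.5 in cKO (-0.52 ± 0.07, edgeR adjusted p = 0.00305). Tsr1, which matures the 40S subunit, had -0.47 ± 0.07 (edgeR adjusted p = 0.00438). The most abundant, Ncl (nucleolin) and the helicase Ddx21, had -0.07 ± 0.06 and -0.08 ± 0.06 and did not pass the threshold. Of 19 genes of the RNA polymerase I and III machinery 1 fell and 0 rose (unadjusted 2 and 1, DESeq2 1 and 0), namely Polr3d, from 30.6 and 32.5 CPM in WT to 17.9 and 16.9 in cKO. Maf1, the repressor of polymerase III, had 0.19 ± 0.07 and Ubtf, the polymerase I factor, -0.13 ± 0.07, neither past the threshold.

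Among genes of mTORC1 and TOP control 3 of 16 fell and 1 rose (unadjusted 4 and 2). Over all genes tested, 16.8% fell and 13.7% rose. DESeq2 called 2 of this list lower and 1 higher, and limma on log2(TPM + 1) 0 and 0. Cnbp, which binds TOP mRNAs, was at 234 and 252 CPM in WT and 184 and 185 in cKO (-0.40 ± 0.06), and Eif4e, the cap-binding factor, fell by 0.35 on the log2 scale (SE 0.07). Larp1 was at 158 and 145 CPM in WT and 163 and 166 in cKO (0.12 ± 0.07, edgeR adjusted p = 0.224). In the Myc network 2 of 7 genes tested fell and 0 rose (unadjusted 2 and 1, DESeq2 2 and 0). Myc, a transcriptional activator of ribosomal protein genes, was at 16.5 and 16.3 CPM in WT and 11.3 and 10.98 in cKO (-0.56 ± 0.09, edgeR adjusted p = 0.00714). Its antagonist Mxd1 had -0.46 ± 0.09, and Max and Mxd4 did not pass the threshold (0.04 ± 0.09 and 0.19 ± 0.06).

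Free Rpl5 and Rpl11 bind Mdm2 and thereby stabilise p53 when ribosome assembly is disturbed. Of 7 genes around this checkpoint 4 rose and 0 fell (unadjusted 5 and 1, DESeq2 3 and 0), against 13.7% and 16.8% of all genes tested. The p53 targets Zmat3, Ccng1 and Bbc3 had log2 fold changes of 0.65 ± 0.07, 0.38 ± 0.06 and 0.98 ± 0.14, each past the threshold, while Cdkn1a, the cell cycle inhibitor p21, was at 424 and 388 CPM in WT and 359 and 368 in cKO (-0.16 ± 0.07, edgeR adjusted p = 0.118). Rpl11 itself was at 460 and 526 CPM in WT and 432 and 444 in cKO (-0.17 ± 0.08, edgeR adjusted p = 0.149).

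Markers of proliferation were lower as well. All 10 fell in cKO, by edgeR, DESeq2 and limma on log2(TPM + 1), with a median log2 fold change of -0.87, and their sum went from 664 and 636 CPM in WT to 370 and 369 in cKO. Pcna had -0.52 ± 0.06, Mki67 -0.65 ± 0.06, Top2a -0.82 ± 0.06 and Rrm2 -1.92 ± 0.12. Their part in the difference of the ribosomal protein genes was not tested.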

How the data were processed

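Members and lists were chosen with earlier results of these data known. Per the labels, the submitters' processing notes name HISAT2 2.0.4, TopHat and MACS2 with the builds mm10 and mm9. The authors deposited estimated counts per gene, which were rounded to whole numbers, and values headed FPKM whose sum over named genes was 998193 to 998570 in each library and which were used as TPM. The deposited peak list gives the pileup signal, the fold enrichment as a ratio and −log10 of q-values (−log10 of p-values was not used), as 1 list without replicates. Whether reads were counted by strand, and how reads that match several places were assigned, is not given in the sources used here, so genes with near-identical copies are uncertain.

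Of 47732 entries, 89 had no gene name (0.110% to 0.125% of counts) and took no part in library sizes or tests. Low counts were removed with filterByExpr, libraries were scaled by TMM, and edgeR 4.0.16 (quasi-likelihood F test, two-sided) was run with Benjamini-Hochberg adjustment over 15327 genes, at 0.05. Scripts were tested on simulated data. CPM in the text is TMM-scaled, and sums over lists are CPM of the library total without TMM. Depth was 23948200 to 34069223 counts per library. Alternatives used DESeq2 1.42.0 and limma 3.58.1 in R 4.3.3. Pseudogenes were matched to member mRNAs with BLAST 2.17.0, and peaks were placed by summit on mm9 and GENCODE vM1, where Rpl41 has no entry. Pseudogenes and coding lengths were examined after seeing the data. The labels do not say that replicate numbers pair the libraries, and 2 pairs cannot show it. The correlation of same-numbered deviations was 0.0519 over all genes and 0.442 over the members, and the fit with the replicate block is an alternative.

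Named members were the 6 with the highest mean TPM, the 6 largest rises and falls past the threshold, those with an m6A peak, those whose symbol ends in l, and those removed by the filter. Of each other list, the 2 highest by CPM and the 2 smallest adjusted p were named. Other members in the text, such as Rpl38, Rps29, Rps7, Rplp0 and Rpl5, were chosen after their values were seen. Some members are counted here but not reported by name, and are left out of the plots by gene.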

Additional observations from a re-analysis of the deposited data

How the results depend on the processing

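The direction of the members' median log2 fold change was negative under every setting tried, between -0.22 and -0.10 when single libraries were left out and -0.056 in both limma fits on TPM, in which the median of all genes was 0.10 with a pseudocount of 0.1 and 0.08 with 1 (a shift of about that size from 0.00), so that the members lay 0.15 and 0.13 below it. The number of members called lower was not stable. It was 26 with all libraries, 0 by limma on log2(TPM + 0.1), 3 by limma on log2(TPM + 1) and 1 to 75 with single libraries left out, and the number called higher went from 0 to 4. Leaving out a cKO library removed a sample of the tighter pair (1.90% against 12.3% variation), and the lone sample was then assumed to vary like the other group. DESeq2 called 24, median-of-ratios size factors 25, library totals only 19, no filter on low counts 32 and adding pseudogene counts 24, of which 22, 25, 19, 26 and 23 were among the 26. With the replicate block 23 members were lower, 21 of them among the 26. The share of counts kept its sign under each alternative, and 6 or 7 members had a peak under each peak rule. Of the 78 members, 2 were above 0 with all libraries, 16 in each limma fit on TPM and 11 without WT replicate 2. Among the members named by rule, the sign turned in 7 cases. Rps27 was at 0.0036, Rps14 at 0.086 and Rpl13 at 0.018 in both limma fits on TPM, and Rps28 went from -0.56 without WT replicate 1 to 0.021 without WT replicate 2. The cause was not tested. With 2 libraries a group, depth was not the limit for most members (at least 234 counts per library), and the spread between WT libraries was larger than counting error.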
